A study of Drosophila melanogaster with 8 samples.

Results

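The long noncoding genes described here are those listed in the deposited tables as CR followed by a number or as pncr, the names given in Drosophila melanogaster to genes annotated as noncoding and to putative noncoding RNAs. Of the 14210 genes listed, 284 carried such a name, and 62 of these reached 1 FPKM (fragments normalised to transcript length and library size) in at least 2 of the 5 biological replicates and so became members. The level itself therefore chose the members, and the levels below are a description. RNA was sequenced from sorted neuroblasts and sorted neurons of wild type larval brains late in the third instar. The labels give 5 neuroblast libraries, which form 3 biological replicates, and 3 neuron libraries, which form 2. Flies of both groups carried asense-Gal4 driving UAS-stingerGFP, a nuclear green fluorescent protein, had been left to lay for 24 h, and gave larvae that were raised for 5 more days at 25 degrees. What could be sorted was thus limited by the cells in which asense-Gal4 acts and the marker protein persists. The labels do not say whether replicates are separate animals, sorts or cultures, and the p-values given below therefore reflect no more than the spread among the samples sequenced, which may be technical.

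The stem cells of the fly central nervous system, the neuroblasts, divide asymmetrically, and neurons arise from their smaller daughters. Noncoding transcripts of the kinds listed here include precursors of microRNAs, hairpin RNAs that Dicer-2 cuts into small interfering RNAs, transcripts that run antisense to coding genes, and long transcripts that stand alone between genes. For most of them no function is known, and a name of the CR form is only an annotation number.

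The labelled cell types were checked with marker lists. The 8 neuroblast markers (among them deadpan, miranda and worniu) summed to 1634, 1614 and 1712 FPKM in the neuroblast replicates, against 51.1 and 84.0 FPKM in the neuron replicates, and 8 of 8 were higher in neuroblasts. The 8 neuron markers (among them elav, n-syb and brp) summed to 154, 78.4 and 16.9 FPKM in neuroblasts, against 849 and 1171 FPKM in neurons, and 8 of 8 were higher in neurons. The 6 glial markers summed to 224, 144 and 202 FPKM in neuroblasts, against 76.1 and 107 FPKM in neurons, and of the 6, Eaat1 was higher in neuroblasts, 4 (repo, moody, Gs2 and alrm) were higher in neurons and nrv2 was not called. Hemocyte, fat body, muscle and tracheal lists summed to at most 5.13 FPKM in any neuroblast replicate and 24.7 FPKM in any neuron replicate. Both are muscle sums, and Mef2 alone gave 4.67 FPKM of the former (neuroblast 2) and 23.2 FPKM of the latter (neuron 1). The other muscle markers, Mhc, up, wupA and sls, stayed under 1 FPKM in every replicate. The fragments of genes with 1 transcript, read from the width of the Cufflinks interval, ranged from 953228 in neuron 2 to 16282423 in a library of neuroblast 3. Neuroblasts 1 and 2 and neuron 1 share a flow cell, and neuroblast 3 and neuron 2 do not. Neuroblast 3 stood apart from the other neuroblast replicates, as described below with its values.

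Most members were weakly expressed. The median member had 3.06 FPKM in neuroblasts and 3.31 FPKM in neurons, whereas the median of the 7975 genes tested had 17.2 FPKM in neuroblasts and 13.9 FPKM in neurons. A mean under 10 FPKM in both cell types was found for 39 of the 62. Counted over all libraries of a cell type, 9 members rested on fewer than 10 fragments in neuroblasts, 14 in neurons and 4 in both. The spread between replicates was also wider, with a median residual SD of 0.519 on the log2 scale for members and 0.345 for all genes tested. Of the 222 CR and pncr genes outside the rule, 113 were listed at 0 in every replicate and 18 reached 1 FPKM in 1 replicate. Members closest to the threshold were CR43436, CR43426 and CR43431, whose second highest replicates had 1.00, 1.02 and 1.16 FPKM. CR43473, CR43242 and CR32658 fell just outside it, with 0.996, 0.967 and 0.965 FPKM.

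A few members were among the most abundant RNAs in the tables. In neuroblasts, CR34335 ranked 1st, CR40469 3rd, pncr002:3R 4th and CR43283 5th of all genes listed by mean FPKM, and in neurons they ranked 9th, 24th, 624th and 17th. The 62 members made up 6.65% of the summed FPKM of neuroblast 1, 3.81% and 3.84% for the paired libraries of neuroblast 2 and 12.8% and 12.9% for those of neuroblast 3, against 0.902% and 0.856% for neuron 1 and 2.59% for neuron 2. Without those 4 genes the order of the cell types turned round, and the other 58 members held between 0.115% and 0.159% of the sum in neuroblasts, against 0.336% to 0.410% of it in neurons. Those 4 are the members with the highest means in neuroblasts, so leaving them out lowers the neuroblast share by choice. CR42862 alone made up 0.156% to 0.221% of the sum in neurons, and without it the other 57 members held 0.108% to 0.136% in neuroblasts, against 0.179% to 0.189% in neurons.

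In at least 1 replicate of each cell type, 50 of the members reached 1 FPKM, 7 in neuroblasts only and 5 in neurons only. Of the 50, 9 were higher in neuroblasts, 15 were higher in neurons and 26 were not called (limma on log2(FPKM + 1), 3 against 2 replicates, Benjamini-Hochberg adjusted p under 0.05). Among all genes that reached 1 FPKM in both cell types, 34.6% passed as higher in neuroblasts, 24.7% passed as higher in neurons and 59.3% passed in either direction. Over all genes tested these shares were 33.4%, 29.9% and 63.3%, and the split depended on scaling, with 2667 higher in neuroblasts and 2381 higher in neurons as deposited, but 1744 higher in neuroblasts and 3493 higher in neurons with libraries scaled to their protein-coding sum. The replicates of the 2 cell types did not overlap in 28 of the 50 members (10 with neuroblasts above and 18 with neurons above), and in 76.1% of all genes that reached 1 FPKM in both. The median log2 fold change of neuroblast over neuron was -0.17 for the 50 members and 0.28 for all such genes. The median of the members turned sign with some settings, among them 0.06 without neuroblast 3 and 0.20 with quantile normalization. It was -0.64 with libraries scaled to their protein-coding sum. A filter at 5 FPKM leaves out low members, so its median of 0.52 is over fewer genes. With that filter the median of all genes tested was 0.38, against 0.17 as deposited. In these bulk samples, fewer cells of a type and less RNA per cell cannot be told apart.

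**Figure D1:**
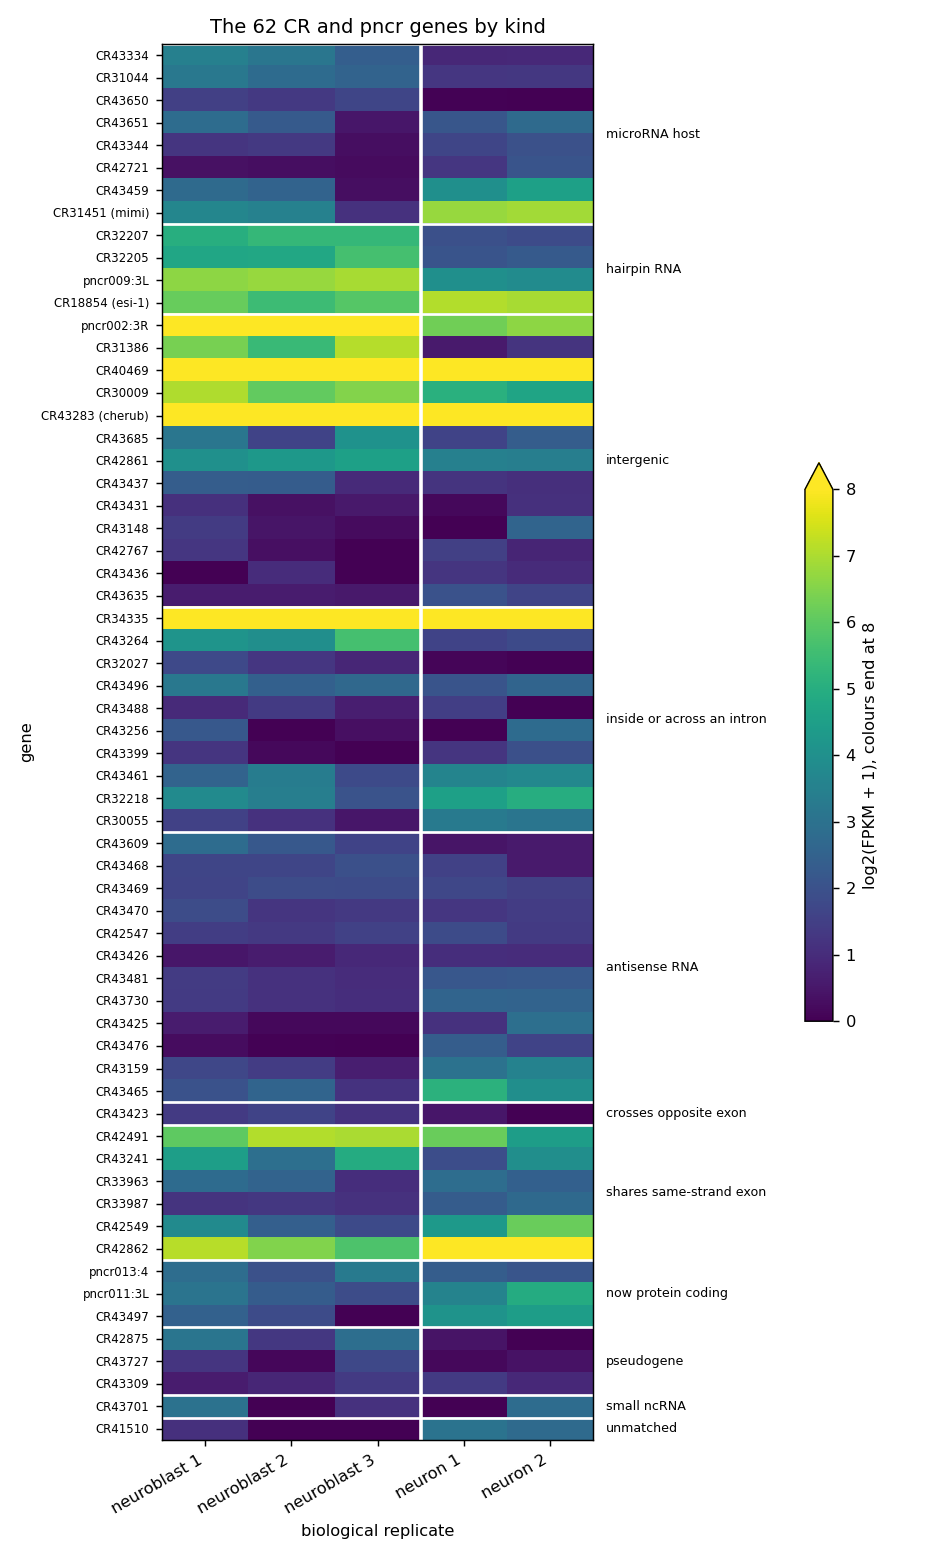
Heat map of log2(FPKM + 1) of the 62 members (lines, grouped by kind of gene and ordered within a kind by fold change) in the 3 neuroblast replicates (left) and the 2 neuron replicates (right). Colours end at 8, so pncr002:3R in neuroblasts, CR42862 in neurons, and CR34335, CR40469 and CR43283 in all replicates show the top colour.

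pncr002:3R, a polyadenylated RNA of unknown function with a 505-base transcript of 2 exons (FBgn0063127, arm 3R, 2525274 to 2525886, minus strand), separated the cell types most widely of the members. It had 13225, 8014 and 11133 FPKM in neuroblasts, against 76.5 and 98.6 FPKM in neurons. All neuroblast replicates lay far above both neuron replicates. The means were 10791 ± 2622 FPKM in neuroblasts (SD, n = 3) and 87.5 ± 15.6 FPKM in neurons (SD, n = 2), a 123-fold difference, and the log2 fold change was 6.91 ± 0.43 (SE, limma adjusted p = 0.000219). It was called in every alternative processing. The cuticle protein gene Ccp84Ab lies 1803 bases away on the same strand and had 4.60, 2.21 and 4.32 FPKM in neuroblasts, against 0 and 0 FPKM in neurons.

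CR43283 is the gene of cherub, a long noncoding RNA that is inherited unequally at neuroblast division and is known from work on brat tumours (FBgn0262972, arm 3R, 7073825 to 7081845, minus strand, transcript of 8311 bases). It had 7776, 6256 and 1240 FPKM in neuroblasts, against 876 and 2223 FPKM in neurons. Neuroblasts 1 and 2 were above both neuron replicates, but neuroblast 3 lay between them. The difference was therefore not called (log2 fold change 1.49 ± 0.90, limma adjusted p = 0.182). Without neuroblast 3 the log2 fold change came to 2.32 (limma adjusted p = 0.0200), and within the shared flow cell, which holds neuroblasts 1 and 2 and neuron 1, to 2.99 (0.0348). Both fits leave out the replicate that lay lowest. A fit within the shared flow cell, or without neuron 1 or neuron 2, here and for the genes below, has a single neuron sample, which is assumed to vary as the neuroblast replicates do. The low value of neuroblast 3 was found in both of its libraries, at 1260 and 1219 FPKM.

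CR31386 follows on the same strand, 13291 bases beyond CR43283 (FBgn0051386, arm 3R, 7095137 to 7131330). It had 80.6, 41.4 and 136 FPKM in neuroblasts, against 0.491 and 1.28 FPKM in neurons, with no overlap. Its log2 fold change was 5.40 ± 0.51 (limma adjusted p = 0.000539), the next after pncr002:3R among the members, and neuroblast 3 had the highest value here. The gene beyond CR31386 is prospero (pros), which encodes a homeodomain protein that ends self-renewal in neuroblast daughters. It had 139, 91.6 and 62.5 FPKM in neuroblasts, against 180 and 457 FPKM in neurons, and was higher in neurons (log2 fold change -1.62, limma adjusted p = 0.0230). On the other side of CR43283, CG5214 was higher in neuroblasts, at 157 ± 62 FPKM in neuroblasts (SD, n = 3) and 23.5 ± 0.99 FPKM in neurons (SD, n = 2).

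CR34335 and CR40469 are short genes of 1 exon on the X chromosome, with reference transcripts of 361 and 214 bases, and are 3420801 bases apart. CR34335 (FBgn0085364, X, 3439895 to 3440143) had 10483, 1130 and 45965 FPKM in neuroblasts, against 334 and 3609 FPKM in neurons. CR40469 (FBgn0058469, X, 18880 to 19093) had 4324, 1378 and 37135 FPKM in neuroblasts, against 459 and 1553 FPKM in neurons. For both genes neuroblast 3 was the highest sample and neuroblast 2 lay below neuron 2, and neuron 2 was above neuron 1. Their log2 fold changes, 2.90 ± 1.64 for CR34335 and 2.84 ± 1.33 for CR40469, were not called (limma adjusted p = 0.158 and 0.1001). Without neuroblast 2 they were 4.32 and 3.91, with limma adjusted p-values of 0.0325 and 0.0298. For both genes the SD of the neuroblast replicates was larger than the difference between the means. FPKM divides by transcript length, and for transcripts this short the value depends on the length that Cufflinks took.

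**Figure D2:**
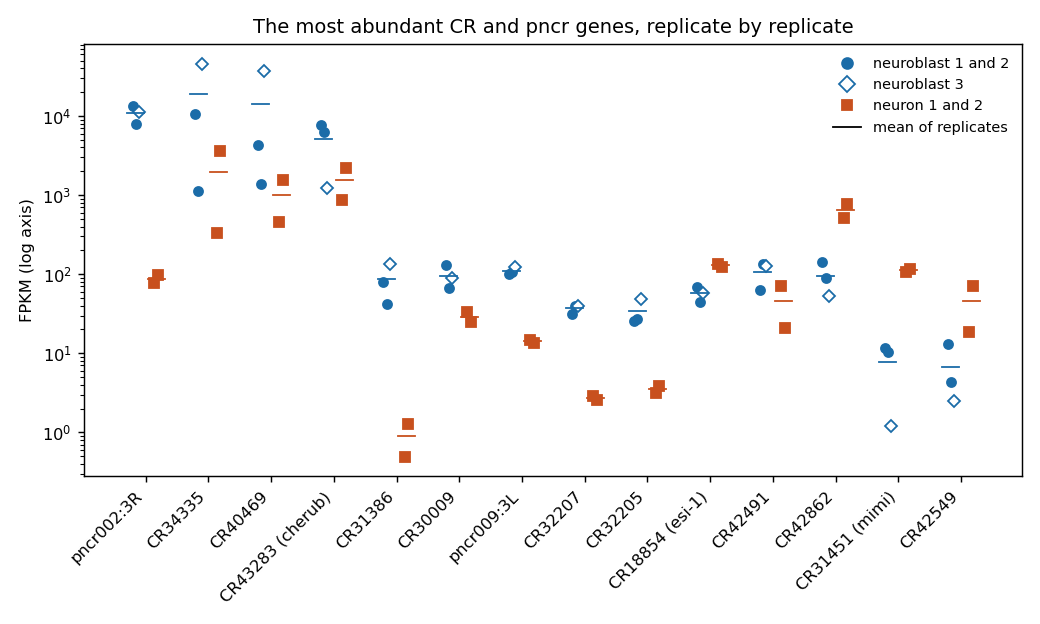
FPKM on a log axis of 14 abundant members in each replicate, neuroblasts to the left (circles, with neuroblast 3 as an open diamond) and neurons to the right (squares) of each gene, with lines at the means. The replicates of the 2 cell types lie far apart for pncr002:3R and CR31386 and overlap for CR34335, CR40469, CR43283 and CR42491.

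Counts by kind of gene, here and below, rest on few genes. Among all genes that reached 1 FPKM in both cell types, 34.6% were higher in neuroblasts and 24.7% in neurons. Of the 13 members that stand between genes in the reference annotation, 12 reached 1 FPKM in both cell types. Of the 12, 4 were higher in neuroblasts, 0 in neurons and 8 were not called. Besides pncr002:3R and CR31386, those higher in neuroblasts were CR30009 and CR42861, whose functions are unknown. CR30009 (FBgn0050009, arm 2R, 6148820 to 6151331, minus strand) had 132, 67.1 and 89.6 FPKM in neuroblasts, against 33.0 and 24.6 FPKM in neurons, with no overlap (log2 fold change 1.66 ± 0.34, limma adjusted p = 0.00481). CR42861 (X, 13638961 to 13639509) had 15.0, 18.0 and 22.5 FPKM in neuroblasts, against 10.1 and 9.72 FPKM in neurons, also with no overlap (0.82 ± 0.29, limma adjusted p = 0.0413). The call of CR30009 was lost without neuron 2 (log2 fold change 1.46, limma adjusted p = 0.0531). That of CR42861 was lost in 13 alternatives, among them without neuroblast 1, without neuroblast 2, without neuron 1 and without neuron 2 (limma adjusted p = 0.0593, 0.0915, 0.152 and 0.179), and its fold change was 0.10 when libraries were scaled to their protein-coding sum.

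CR43685, CR43437, CR43431, CR43148, CR42767 and CR43436, all of unknown function, are the remaining intergenic members seen in both cell types. CR43685 had 7.76, 2.02 and 16.0 FPKM in neuroblasts, against 2.04 and 4.18 FPKM in neurons, and CR43437 had 4.09, 4.07 and 0.937 FPKM in neuroblasts, against 1.32 and 1.13 FPKM in neurons. In both genes 1 neuroblast replicate fell at or below the neuron level. CR43685 was called without neuroblast 2 (log2 fold change 1.62, limma adjusted p = 0.0299) and CR43437 without neuroblast 3 (1.24, 0.00529). CR43436, CR42767 and CR43148 had means under 1 FPKM in neuroblasts and of 1.17, 1.32 and 2.48 FPKM in neurons. CR43436 was called, higher in neurons, without neuroblast 2 (log2 fold change -1.10, limma adjusted p = 0.00986), CR42767 without neuroblast 1 (-1.01, 0.0147) and CR43148 without neuron 1 (-1.90, 0.0343), a fit with 1 neuron sample in which CR43148 had 4.96 FPKM, while it was listed at 0 in neuron 1. CR43635 reached 1 FPKM in neurons only, with 0.532, 0.533 and 0.469 FPKM in neuroblasts, against 3.02 and 2.12 FPKM in neurons.

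All 4 hairpin RNA genes among the CR and pncr names were members, and hairpin genes under other names were not looked for. Hairpin transcripts fold back on themselves and are cut by Dicer-2 into small interfering RNAs that load Argonaute 2. Those of the pncr009 cluster are known in fly testis as silencers of the 825-Oak gene family. pncr009:3L (FBgn0062928, arm 3L, 19479846 to 19481488) had 99.3, 107 and 124 FPKM in neuroblasts, against 14.7 and 13.5 FPKM in neurons. CR32207 (arm 3L, 19470429 to 19471769) had 31.5, 39.6 and 39.4 FPKM in neuroblasts, against 2.90 and 2.53 FPKM in neurons. CR32205 (arm 3L, 19415938 to 19417283) had 25.5, 27.0 and 48.7 FPKM in neuroblasts, against 3.18 and 3.84 FPKM in neurons. In all 3 genes every neuroblast replicate lay several times above every neuron replicate, and neuroblast 3 stood above the other neuroblast replicates in CR32205. The log2 fold changes were 2.87 ± 0.24 for pncr009:3L, 3.36 ± 0.27 for CR32207 and 2.90 ± 0.36 for CR32205 (limma adjusted p = 0.000369, 0.000364 and 0.000944). These calls held in every alternative.

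The 3 hairpin genes lie together on the minus strand, with 53145 bases between CR32205 and CR32207 and 8076 bases between CR32207 and pncr009:3L. Between CR32205 and CR32207 stand 825-Oak and its relatives. 825-Oak was listed at 0 in every replicate, and its neighbour CG12519 had 4.84, 2.25 and 18.1 FPKM in neuroblasts and was listed at 0 in both neuron replicates. Chd3, which encodes a chromatin remodelling ATPase and lies in the same interval, had 55.7, 46.4 and 74.3 FPKM in neuroblasts, against 0.891 and 0.961 FPKM in neurons. CG32206, on the far side of CR32205, went the other way with 1.73, 0.875 and 0.281 FPKM in neuroblasts, against 9.48 and 9.94 FPKM in neurons. Hairpin genes of this family resemble one another, and the sources used here do not say how fragments that match several places were counted.

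CR18854, the esi-1 locus, was the only hairpin member that was higher in neurons. It lies on arm 2L (FBgn0042174, 9787279 to 9790745, minus strand) and had 69.3, 43.9 and 57.7 FPKM in neuroblasts, against 135 and 123 FPKM in neurons. The replicates did not overlap, and the log2 fold change was -1.19 ± 0.27 (limma adjusted p = 0.00819). The call was lost without neuron 1 (log2 fold change -1.12, limma adjusted p = 0.0676) and without neuron 2 (-1.26, 0.0502), at folds close to that with all replicates. Of the genes it overlaps on the opposite strand, CG4036 was higher in neuroblasts, with 23.1 ± 9.8 FPKM in neuroblasts (SD, n = 3) and 4.39 ± 0.32 FPKM in neurons (SD, n = 2), and IP3K1, an inositol trisphosphate kinase gene, averaged 1.46 FPKM in neuroblasts and 0.650 FPKM in neurons.

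Of the CR genes listed, 11 are microRNA hosts by exon overlap on their strand, and 8 of the 11 were members. A primary transcript of this kind is cut by Drosha in the nucleus, so its level in polyadenylated RNA is not that of the mature microRNA. Of the 5 that reached 1 FPKM in both cell types, 1 was higher in neuroblasts, 2 were higher in neurons and 2 were not called. The 3 others reached it in one cell type, 2 in neuroblasts and 1 in neurons.

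CR31044, the host of mir-279 and mir-996 (FBgn0051044, arm 3R, 25040284 to 25045389, plus strand), was higher in neuroblasts. It had 8.20, 5.95 and 4.84 FPKM in neuroblasts, against 1.41 and 1.44 FPKM in neurons, with no overlap (log2 fold change 1.57 ± 0.30, limma adjusted p = 0.00389). The neighbouring gene Ef1gamma, a translation elongation factor gene 499 bases away on the same strand, averaged 1077 FPKM in neuroblasts and 286 FPKM in neurons and was higher in neuroblasts too. CR43334, the host of bantam, a microRNA that promotes growth and blocks the cell death gene hid, had 10.1, 7.91 and 4.24 FPKM in neuroblasts, against 0.848 and 0.912 FPKM in neurons. CR43650, the host of mir-8, had 1.84, 1.53 and 2.19 FPKM in neuroblasts, against 0.0388 and 0 FPKM in neurons, where about 1 fragment was found in all. These hosts stayed under 1 FPKM in every neuron replicate and therefore have no call.

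CR31451, named mimi in the reference annotation and the host of mir-9381, had the most negative fold change of the members. It had 11.6, 10.4 and 1.19 FPKM in neuroblasts, against 107 and 118 FPKM in neurons (FBgn0051451, arm 3R, 19809225 to 19810787, plus strand). The groups were far apart and neuroblast 3 was the lowest sample (log2 fold change -4.06 ± 0.74, limma adjusted p = 0.00305). CG31140, a coding gene 271 bases away on the same strand, followed it closely, with 15.8, 7.92 and 0.440 FPKM in neuroblasts, against 123 and 142 FPKM in neurons. Whether genes so close on 1 strand shared fragments was not tested. CG13603, 148 bases away on the opposite strand, was higher in neuroblasts, with 39.1 ± 11.1 FPKM in neuroblasts (SD, n = 3) and 13.5 ± 0.19 FPKM in neurons (SD, n = 2).

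CR43459 carries mir-277 and mir-34, and mir-34 is known for its part in brain ageing. It had 5.79, 4.91 and 0.233 FPKM in neuroblasts, against 14.9 and 22.5 FPKM in neurons, with no overlap (log2 fold change -2.40 ± 0.73, limma adjusted p = 0.0243). The call was lost without neuron 1 (log2 fold change -2.69, limma adjusted p = 0.0839) and without neuron 2 (-2.12, 0.147). CR43344, the let-7 complex host with let-7, mir-100 and mir-125, which times the passage to adult stages, had 1.35, 1.49 and 0.227 FPKM in neuroblasts, against 2.21 and 2.93 FPKM in neurons. The replicates did not overlap, but the difference missed the threshold (-0.88 ± 0.36, limma adjusted p = 0.0663) and passed it in 6 alternatives, among them without neuroblast 1 (0.0392). CR43651, the host of mir-14, a microRNA that represses cell death, had 6.14, 3.79 and 0.390 FPKM in neuroblasts, against 3.46 and 5.78 FPKM in neurons, and the groups overlapped. CR42721, the host of mir-993, had 0.283, 0.230 and 0.184 FPKM in neuroblasts, against 1.42 and 3.19 FPKM in neurons, and reached 1 FPKM in neurons only.

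Among the members, 12 are annotated as antisense RNAs, and 8 of these reached 1 FPKM in both cell types. Of these 8, 4 were higher in neurons, 0 were higher in neuroblasts and 4 were not called. This split changed with quantile normalization, as given below. Over all genes that reached 1 FPKM in both, 24.7% were higher in neurons and 34.6% in neuroblasts. CR43465 had 3.01, 4.99 and 1.25 FPKM in neuroblasts, against 34.6 and 14.6 FPKM in neurons (log2 fold change -2.63 ± 0.53, limma adjusted p = 0.00449). Both neuron replicates lay above every neuroblast replicate, and Ucp4B, the mitochondrial carrier gene it lies across, was listed at 0 in all replicates but neuron 1, with 0.101 FPKM. CR43159, antisense to yellow-k, had 2.26, 1.67 and 0.590 FPKM in neuroblasts, against 7.06 and 10.6 FPKM in neurons (-2.02 ± 0.38, limma adjusted p = 0.00366). CR43730, antisense to JhI-26, had 1.56, 1.21 and 1.08 FPKM in neuroblasts, against 5.01 and 4.88 FPKM in neurons (-1.40 ± 0.25, 0.00288). CR43481 had 1.65, 1.21 and 1.02 FPKM in neuroblasts, against 3.55 and 3.66 FPKM in neurons (-1.02 ± 0.25, limma adjusted p = 0.0107). By the deposited spans it lies near the heat shock genes Hsp23 and Hsp67Ba. In the reference annotation it crosses an exon of Hsp67Ba on the other strand. In these 4 genes the cell types did not overlap. The call of CR43481 was lost in 6 alternatives. Without neuron 1 and without neuron 2 it was lost at nearly the same folds (log2 fold change -1.04 and -1.003). With quantile normalization the log2 fold change of CR43481 was smaller, at -0.40 (limma adjusted p = 0.188).

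The 4 antisense members that were not called were CR42547, CR43470, CR43469 and CR43468, and they had 1.20 to 2.41 FPKM in each cell type by mean. CR43468 and CR43469 stand 79 bases apart on 1 strand; CR43468 had 2.17, 2.18 and 2.88 FPKM in neuroblasts, against 1.90 and 0.502 FPKM in neurons. Without neuron 1, which leaves 1 neuron sample, its log2 fold change was 1.18. With quantile normalization CR43468, CR43469 and CR43470 were called higher in neuroblasts. Their log2 fold changes were then 1.23, 0.84 and 0.82 (limma adjusted p = 0.0149, 0.0373 and 0.0290). CR43465, CR43159 and CR43730 kept their calls as higher in neurons under it, and CR43481 did not. The other 4 antisense members reached 1 FPKM in one cell type only. CR43609 had 6.07, 3.64 and 2.03 FPKM in neuroblasts, against 0.373 and 0.488 FPKM in neurons; it lies across the receptor gene Ir21a and 580 bases from l(2)gl, a cell polarity gene that was itself higher in neuroblasts. CR43476 had 0.213, 0.0345 and 0 FPKM in neuroblasts, against 4.12 and 2.05 FPKM in neurons. CR43425 had 0.514, 0.127 and 0.115 FPKM in neuroblasts, against 1.20 and 6.54 FPKM in neurons; it lies across unc-13, which primes synaptic vesicles and averaged 26.8 FPKM in neuroblasts and 191 FPKM in neurons. CR43426 averaged 0.605 FPKM in neuroblasts and 1.05 FPKM in neurons. CR43423, which crosses the bantam host CR43334 on the other strand, had 1.58, 2.07 and 1.28 FPKM in neuroblasts, against 0.391 and 0 FPKM in neurons. In neurons it rested on about 2 fragments.

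By kind, 6 members share an exon with a gene on their own strand, and all 6 reached 1 FPKM in both cell types. Of the 6, 3 were higher in neurons, 0 in neuroblasts and 3 were not called. CR43468 (with AspRS), CR43730 (with CG30099) and pncr011:3L (with APP-BP1) also share such an exon, but are counted under other kinds. CR42862, which overlaps CG33229 (FBgn0262109, arm 3L, 224106 to 230964, plus strand), was the most abundant of these. It had 141, 89.3 and 52.9 FPKM in neuroblasts, against 520 and 761 FPKM in neurons. The groups were well apart, with neuroblast 3 lowest (log2 fold change -2.83 ± 0.44, limma adjusted p = 0.00171). CG33229 had 78.7, 61.5 and 43.8 FPKM in neuroblasts, against 205 and 239 FPKM in neurons, so CR42862 stood at 179%, 145% and 121% of it in the neuroblast replicates, against 254% and 318% in the neuron replicates. Cufflinks marked CR42862 as failed in 1 library of neuron 1.

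CR42549 overlaps mura, the gene of a RING finger protein. It had 13.2, 4.33 and 2.48 FPKM in neuroblasts, against 18.5 and 71.8 FPKM in neurons. The groups did not overlap, and neuron 2 was well above neuron 1 (log2 fold change -2.57 ± 0.74, limma adjusted p = 0.0196). The call was lost without neuron 2 (-1.62, limma adjusted p = 0.168) and without neuroblast 3 (-2.13, 0.0605). CR33987 had 1.29, 1.45 and 1.20 FPKM in neuroblasts, against 3.98 and 5.69 FPKM in neurons (-1.32 ± 0.26, limma adjusted p = 0.00454), and stood at 95.5%, 102% and 155% of tio, the transcription factor gene whose exon it shares, in the neuroblast replicates, against 105% and 116% in the neuron replicates.

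CR42491 overlaps RpL22, a ribosomal protein gene. It had 63.2, 133 and 126 FPKM in neuroblasts, against 71.0 and 20.7 FPKM in neurons. Neuroblast 1 lay below neuron 1, and the difference was not called (log2 fold change 1.38 ± 0.56, limma adjusted p = 0.0640). It passed without neuroblast 1 (1.72, 0.0135) and without neuron 1 (2.24, 0.0232), a fit that leaves 1 neuron sample. It stood at 6.29%, 22.7% and 12.6% of RpL22 in the neuroblast replicates, against 21.7% and 4.62% in the neuron replicates, and RpL22 itself was higher in neuroblasts. CR33963 averaged 3.98 ± 2.56 FPKM in neuroblasts (SD, n = 3) and 5.34 ± 1.28 FPKM in neurons (SD, n = 2), while Tis11, the gene of an mRNA decay factor whose exon it shares, was higher in neuroblasts (10.2 FPKM in neuroblasts and 4.08 FPKM in neurons by mean). CR43241 had 21.5, 6.59 and 29.6 FPKM in neuroblasts, against 2.73 and 14.5 FPKM in neurons, with overlap.

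Inside or across an intron of another gene in the reference annotation lie 10 members, CR34335 among them, and 9 of these reached 1 FPKM in both cell types. Of the 9, 1 was higher in neuroblasts, 2 were higher in neurons and 6 were not called. CR43264 (X, 5725931 to 5726248, minus strand) had 16.6, 14.5 and 49.3 FPKM in neuroblasts, against 2.07 and 2.48 FPKM in neurons, with no overlap (log2 fold change 2.89 ± 0.54, limma adjusted p = 0.00342). CG15765, which holds it on the opposite strand, had 5.81, 2.40 and 0.103 FPKM in neuroblasts, against 39.6 and 39.2 FPKM in neurons (-3.78, limma adjusted p = 0.00335). The pair thus lay in opposite directions, and in neuroblast 3 the CR gene was at its highest and CG15765 at its lowest. Only about 5 fragments of CR43264 were found in neurons.

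CR30055, within the span of the corepressor gene Sin3A on the other strand, had 1.90, 1.23 and 0.399 FPKM in neuroblasts, against 8.74 and 7.67 FPKM in neurons (log2 fold change -2.14 ± 0.36, limma adjusted p = 0.00233). Sin3A, at 53.3 ± 15.3 FPKM in neuroblasts (SD, n = 3) and 144 ± 5 FPKM in neurons (SD, n = 2), was higher in neurons too. CR32218 overlaps Su(Tpl), an elongation factor gene, and Mi-2, a chromatin remodelling gene, on its strand. It had 13.2, 9.76 and 3.13 FPKM in neuroblasts, against 22.2 and 30.9 FPKM in neurons, with no overlap (-1.67 ± 0.54, limma adjusted p = 0.0301). The call was lost without neuron 1 (log2 fold change -1.90, limma adjusted p = 0.0951) and without neuron 2 (-1.44, 0.179).

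The intronic members with no call were, besides CR34335, CR43461, CR43496, CR43399, CR43256 and CR43488, of unknown function. CR43461 had 4.90, 9.32 and 2.47 FPKM in neuroblasts, against 11.3 and 12.4 FPKM in neurons, and CR43399 had 1.34, 0.122 and 0 FPKM in neuroblasts, against 1.36 and 2.88 FPKM in neurons. The replicates did not overlap in these genes, but the neuroblast replicates were uneven. They passed without neuroblast 2 (CR43461, log2 fold change -1.52, limma adjusted p = 0.0210) and without neuroblast 1 (CR43399, -1.49, 0.00233). CR43496 averaged 6.01 ± 1.90 FPKM in neuroblasts (SD, n = 3) and 4.07 ± 1.19 FPKM in neurons (SD, n = 2). CR43256 and CR43488 were listed at 0 in at least 1 replicate. CR32027 reached 1 FPKM in neuroblasts only, with 2.39, 1.397 and 0.801 FPKM in neuroblasts, against 0.0863 and 0 FPKM in neurons, and it lies across Indy, a citrate transporter gene that averaged 2.47 FPKM in neuroblasts and 0.588 FPKM in neurons.

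The noncoding label no longer holds for 3 members, which current annotations make protein coding. CR43497, now part of CG32700 in RefSeq, had 4.60, 2.54 and 0 FPKM in neuroblasts, against 16.1 and 21.0 FPKM in neurons (log2 fold change -2.85 ± 0.69, limma adjusted p = 0.00968). CG32700 has an entry of its own in the tables, 211 bases away, and CR43497 was at 76.6%, 111% and 0% of it in the neuroblast replicates, against 98.7% and 71.6% in the neuron replicates. pncr011:3L, now CG33947, had 7.36, 4.03 and 2.63 FPKM in neuroblasts, against 11.0 and 29.1 FPKM in neurons (-1.83 ± 0.52, limma adjusted p = 0.0181). In both genes the groups did not overlap. The call of CR43497 was lost without neuron 1 (log2 fold change -3.03, limma adjusted p = 0.0524) and without neuron 2 (-2.67, 0.0760), and that of pncr011:3L without neuron 2 (-1.17, 0.157). pncr013:4, now CG33941, had 6.33, 3.00 and 8.79 FPKM in neuroblasts, against 4.14 and 3.30 FPKM in neurons, and was not called. Asator, a tau tubulin kinase gene that pncr013:4 overlaps on the opposite strand, averaged 9.03 FPKM in neuroblasts and 61.0 FPKM in neurons.

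Of the 10 pncr genes listed, 4 were members, and they are pncr002:3R, pncr009:3L, pncr011:3L and pncr013:4. pncr004:X, pncr008:3L and pncr015:3L were listed at 0 in every replicate. pncr003:2L had 0, 0.546 and 0 FPKM in neuroblasts, against 0.722 and 0.291 FPKM in neurons, and pncr017:3R had 0, 0.304 and 0 FPKM in neuroblasts, against 0.621 and 0 FPKM in neurons. pncr016:2R was above 0 only in neuroblast 2, at 0.217 FPKM.

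The reference annotation makes 3 members pseudogenes. CR42875 had 7.71, 1.46 and 6.37 FPKM in neuroblasts, against 0.336 and 0 FPKM in neurons, and CR43727 had 1.34, 0.0971 and 2.35 FPKM in neuroblasts, against 0.130 and 0.301 FPKM in neurons. Both reached 1 FPKM in neuroblasts only, and fragments of a pseudogene can stem from its parent gene. CR43309 averaged 0.972 FPKM in neuroblasts and 1.23 FPKM in neurons and was not called. CR43701, a small RNA gene of 93 bases, rested on 3 fragments in neuroblasts and 1 in neurons. CR41510, an unplaced gene on the heterochromatic arm 2RHet that matched no current entry, had 1.16, 0 and 0.0000281 FPKM in neuroblasts, against 7.26 and 5.73 FPKM in neurons (log2 fold change -2.52 ± 0.39, limma adjusted p = 0.00173). This call rested on about 1 fragment in all neuroblast libraries together and about 16 in all neuron libraries. Among the neuroblast replicates only neuroblast 1 brought CR41510 to 1 FPKM. CR41510 overlaps CG40498, which averaged 4.73 FPKM in neuroblasts and 37.2 FPKM in neurons.

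**Figure D3:**
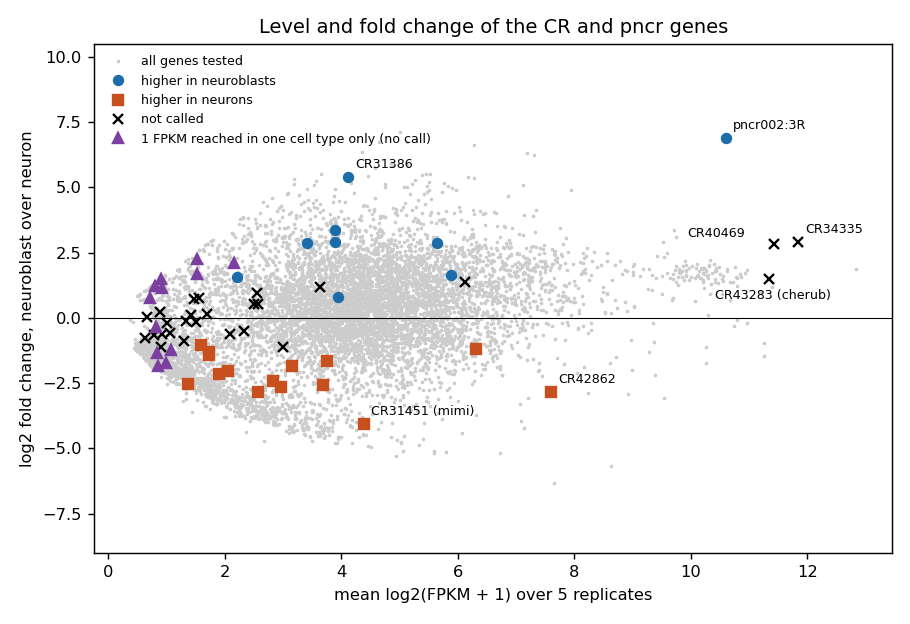
Log2 fold change of neuroblast over neuron against the mean of log2(FPKM + 1) over 5 replicates for all 7975 genes tested (grey) and the 62 members (symbols by call). Most members lie at the low end of the level axis, while pncr002:3R, CR34335, CR40469 and CR43283 lie at its high end.

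In the files' own spans, 35 of the members overlap another listed gene and 27 do not. With a partner on the same strand there were 9 overlapping pairs, all with a tested partner, and in 7 of them the member and the partner had log2 fold changes of 1 sign. With a partner on the opposite strand, 16 of 29 overlapping pairs had a tested partner, and 7 of the 16 were of 1 sign. CR43334 and CR43423 are members of each other's pair and give 2 of these. The opposite-strand pairs include members that reached 1 FPKM in one cell type only, whose direction the filter fixes. Among the pairs of 1 sign these are CR32027 with Indy, CR43425 with unc-13, and CR43334 and CR43423 with each other. The correlations on opposite strands below include them too. Across pairs the log2 fold changes had a Pearson r of 0.74 and a Spearman rho of 0.66 on the same strand (9 pairs) and of -0.06 and 0.06 on opposite strands (16 pairs). This describes pairs that share libraries and, on the same strand, may share fragments. The libraries keep strand by dUTP marking, but the sources used here do not say if strand entered the counting, and the values of overlapping genes are uncertain.

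**Figure D4:**
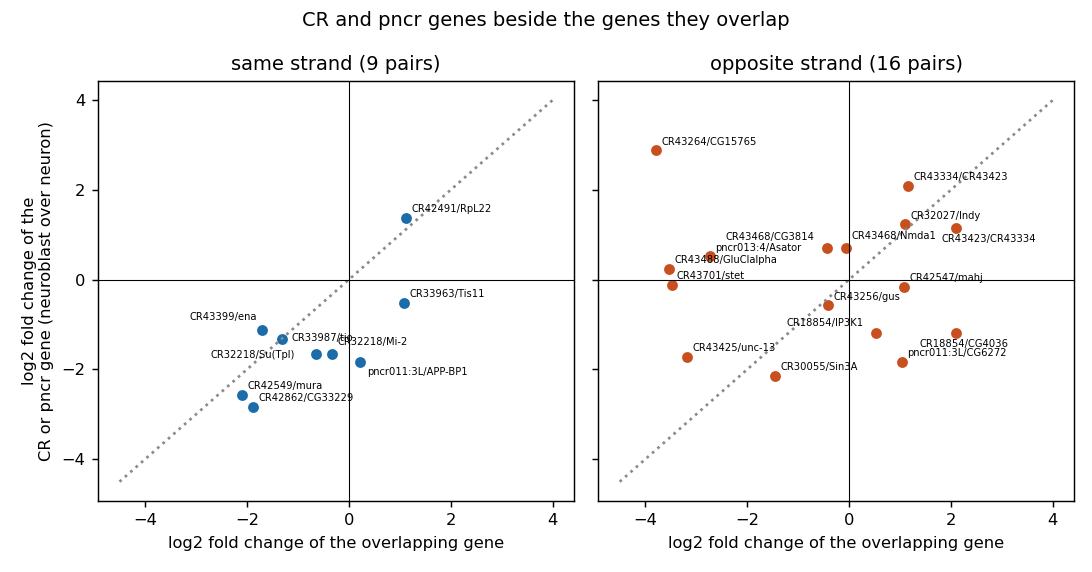
Log2 fold change of each member (vertical) against that of a gene it overlaps (horizontal), both neuroblast over neuron, for 9 pairs on the same strand and 16 on opposite strands, with a dotted line where both are equal. On the same strand most pairs lie at the lower left, and CR43264 with CG15765 lies farthest to the upper left among opposite strands.

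Neuroblast 3 was the lowest of the neuroblast replicates in 32 of the 62 members, the highest in 16 and between the others in 14. For all genes tested these shares were 32.1% lowest and 52.4% highest. Among the 15 members higher in neurons it was the lowest in 13 and the highest in 0, and among all genes called higher in neurons it was the lowest in 75.9%. Among the 9 members higher in neuroblasts it was the lowest in 1 and the highest in 5, where among all genes called higher in neuroblasts it was the lowest in 5.59% and the highest in 83.3%. The shares over all genes called also cover genes that reached 1 FPKM in one cell type only, unlike the 15 and 9 members. CR31451, CR43459, CR43497 and CR43651 were far lower in neuroblast 3 than in neuroblasts 1 and 2, as was the sum of the neuron markers, at 16.9 FPKM beside 154 and 78.4 FPKM. Neuroblast 3 is also the deepest sample and was run on other flow cells, and the part of markers, depth and flow cell in these values was not tested. CR43283 went with this group of low values although its mean was higher in neuroblasts, and CR34335 and CR40469 went the other way, being highest in neuroblast 3.

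**Figure D5:**
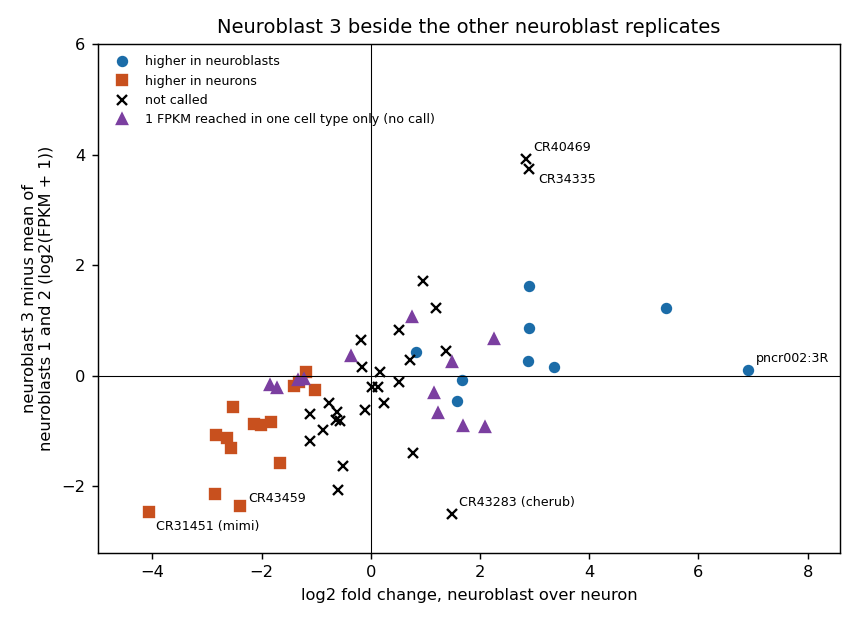
Difference of neuroblast 3 from the mean of neuroblasts 1 and 2 on the log2(FPKM + 1) scale (vertical) against the log2 fold change of neuroblast over neuron (horizontal) for the 62 members, with symbols by call. The members higher in neurons lie at or below 0.1 on the vertical axis, CR40469 and CR34335 lie highest and CR43283 lies lowest.

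Replicates differed more in the members than in genes at large. The SD over members of the log2 difference between biological replicates was 0.810 for neuroblasts 1 and 2, 1.14 for neuroblasts 1 and 3, 1.38 for neuroblasts 2 and 3, and 0.997 for neurons 1 and 2. Over all genes tested these were 0.489, 0.847, 0.775 and 0.546. The members were also lower in level, with a median mean log2(FPKM + 1) of 1.99, against 4.01 for all genes tested. No set of genes matched for level was compared, so the part of level in this spread was not tested. Between technical replicates of a sample the SD over members was 0.291, 0.292 and 0.419, the last for neuron 1.

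Long noncoding RNA genes with names of their own fall outside the rule and give a comparison. Of 16 such genes in the list, 13 were found and 11 were tested. Of the 11, 2 were higher in neuroblasts, 1 was higher in neurons and 8 were not called. Over all genes tested, 33.4% were higher in neuroblasts and 29.9% in neurons. sphinx, known for its part in male courtship, averaged 4.81 ± 0.30 FPKM in neuroblasts (SD, n = 3) and 0.814 ± 0.551 FPKM in neurons (SD, n = 2). Uhg4, a host of small nucleolar RNAs, averaged 41.1 ± 31.8 FPKM in neuroblasts and 3.46 ± 1.99 FPKM in neurons. roX2, an RNA of the dosage compensation complex, had 17.9, 3.24 and 5.73 FPKM in neuroblasts, against 170 and 459 FPKM in neurons. Hsromega, an RNA induced by heat shock, had 717, 349 and 38.8 FPKM in neuroblasts, against 1319 and 2027 FPKM in neurons. The groups did not overlap for Hsromega, but the difference missed the threshold (log2 fold change -2.92, limma adjusted p = 0.0527).

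The authors' deposited table, made from counts and limited to adjusted p-values of up to 0.00995, lists 25 of the 62 members, 15 as higher in neuroblasts and 10 as higher in neurons. None of the 25 had the opposite sign here. Of the 24 members called here that reached 1 FPKM in both cell types, the authors' deposited table lists 15. It also lists 4 that were not called here, which are CR34335 (log2 fold change 2.83, adjusted p 7.65e-11), CR40469 (2.09, 1.02e-08), CR43241 (1.43, 0.00710) and CR43399 (-3.15, 0.00360). For pncr002:3R the authors' deposited table gives mean normalized counts of 68011 in neuroblasts and 662 in neurons and a log2 fold change of 6.68. CR43283 is not among the genes in the authors' deposited table.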

How the data were processed

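Polyadenylated RNA of sorted neuroblasts (5 libraries) and neurons (3 libraries) was sequenced. The deposited values per library are FPKM with an interval and a status, made with Cufflinks per the file headers; the submitters' processing notes name, with no roles, Cufflinks 1.3.0, TopHat 1.4.1, BWA 0.6.1, DESeq 1.8.3 and HTSeq. The authors' table holds mean normalized counts (a signal), a fold (ratio) of neuroblast over neuron, its log2, and p-values, per the file headers. The sources used here do not give the genome build, and coordinates are those of the files with a 1-based start. Ensembl release 115 and RefSeq annotations gave only names, kinds, strands, transcript lengths and exon overlaps, and 60 of 62 members matched (57 by identifier, 3 by symbol). A kind was assigned by microRNA, name and exon overlap in that order.

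The log2 values of technical replicates were averaged, which left 3 neuroblast and 2 neuron replicates. limma 3.58.1 in R 4.3.3 was run two-sided on log2(FPKM + 1), with a prior variance that follows intensity and no covariate, for the 7975 genes that had 1 FPKM or more in 2 or more replicates, with Benjamini-Hochberg adjustment over all of them. Every adjusted p not credited to the authors is from this fit or its alternatives. Fold changes on this scale understate those of low genes. Members that reached 1 FPKM in one cell type are given without a call, since the filter fixes their direction. Means and SDs are of FPKM over biological replicates. Fragments were read from the interval, taking its upper end as 2 SDs of a count over the value. For genes with 1 transcript and under 200 fragments, 91.0% to 91.6% of values came out whole within 0.05. Among the CR and pncr genes of that kind, 71.7% to 84.0% did so. Fragments were used for depth and for the approximate fragment counts given for members. The script was tested on simulated data.

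Members, lists, tests and the rule for named genes were chosen with earlier results of these data known. Named are all pncr genes, the 8 most abundant members in each cell type, the 10 largest fold changes in each direction among members seen in both cell types and the 6 largest among those seen in one, genes next to the threshold, and overlapping or neighbouring genes; others were named after their values were seen. Alternatives covered the pseudocount, filter, scaling, technical replicates, prior variance, replicate block, threshold, flow cell, status and each replicate left out. There were 0 columns of samples that could not be mapped, and no sequence is printed.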

Additional observations from a re-analysis of the deposited data

How the results depend on the processing

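Under 22 alternatives, 0 members with a call changed direction. Of the 24 members called in both cell types, 15 kept the call in every alternative run and 9 lost it in at least 1 (CR18854, CR30009, CR32218, CR42549, CR42861, CR43459, CR43481, CR43497 and pncr011:3L), while 15 members without a call gained one in at least 1. CR42862 could not be run with genes limited to status OK. The number higher in neuroblasts, 9 as reported, ran from 7 to 11 with a replicate left out, and the number higher in neurons, 15 as reported, from 8 to 18; the low count, 8, is that without neuron 2, a fit with 1 neuron sample. Scaling moved the median log2 fold change of all genes tested, which was 0.17 as deposited, to -0.17 (upper quartile), -0.11 (median ratio), 0.01 (quantile) and -0.53 (protein-coding sum), and the members called were then 8 and 17, 8 and 17, 12 and 15, and 8 and 19, higher in neuroblasts first. Among all genes tested, 2667 were higher in neuroblasts and 2381 in neurons as deposited. Under the scalings, in the same order, these were 2274 and 2914, 2368 and 2846, 2519 and 2467, and 1744 and 3493. The labels do not say whether same-numbered replicates belong together, so no pairing was used. With the replicate number as a block the members called were 9 and 12, where 2047 and 1977 of all genes tested were called. Neuroblast 3 is the only sample of its number, so in that fit it adds nothing to the fold changes. The median log2 fold change of all genes tested was 0.08 with the block and 0.08 without neuroblast 3. Deviations of same-numbered samples correlated at -0.52 and -0.39, which with 2 neuron samples, whose deviations mirror each other, does not settle the pairing. Depth limits the low members most, and 14 of the 62 rest on under 10 fragments in neurons.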

Other observations

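Outside the rule, the authors' deposited table lists 2 further CR genes. CR31144, which lies within the span of RpL3, had 0, 0.825 and 5.45 FPKM in neuroblasts, against 0.251 and 0 FPKM in neurons, and the authors' deposited table gives it mean normalized counts of 33.0 in neuroblasts and 1.16 in neurons. CR43429 has mean normalized counts of 22.2 in neuroblasts and 0 in neurons in the authors' deposited table.

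Several members and close neighbours went opposite ways, among them CR43264 and CG15765, CR31451 and CG13603, and CR43730 and CG42372. CR42861 and CG10990, CR42549 and RnpS1, and CR18854 and CG4036 did so too. Other close neighbours went the same way, such as CR31451 and CG31140, and these pairs are examples only. CG42372, on the other strand, averaged 49.6 FPKM in neuroblasts and 6.18 FPKM in neurons. It lies 57 bases from CR43730 by the deposited spans, but their exons overlap in the reference annotation.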
